A study of Mus musculus with 19 samples.

Results

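The Cd209 lectin family was followed across sorted mouse Kupffer cells (KCs), the macrophages of the liver sinusoids. Its 7 listed members, Cd209a to Cd209g, were taken as the genes with a probeset of that single symbol, and each of the 7 had 1 probeset among the 19938 genes measured. RNA had been measured by Affymetrix Mouse Gene 1.0 ST arrays, on 19 arrays of 1 sample each, and is given as the log2 signal that the authors deposited. Monocyte-derived KCs (mo-KCs) came from KC-DTR mice, in which the Clec4f gene carries the human diphtheria toxin receptor, 15 days (3 arrays) or 30 days (5 arrays) after 50 ng of diphtheria toxin (DT) had removed the resident KCs. Embryonic KCs (em-KCs) were on 11 arrays of 5 conditions. These were WT littermates of the KC-DTR mice at 15 days (2 arrays) and 30 days (2 arrays) after DT, untreated KC-DTR mice (3 arrays), 1 untreated WT littermate, and WT mice (3 arrays). All mice were on the C57Bl/6 background and 6 to 12 weeks of age. Because the receptor is expressed with Clec4f, the injected DT removes the cells that express that gene. The labels call the arrays of a condition biological replicates without saying whether mice were pooled.

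The CD209 proteins are C-type lectins, which bind mannose- and fucose-rich sugars on microbes and on host glycoproteins in the presence of calcium. Humans have DC-SIGN and its liver relative L-SIGN, whereas the mouse family grew by gene duplication into a cluster of DC-SIGN and SIGN-related (SIGNR) genes. Cd209a is known from dendritic cells, Cd209b (SIGN-R1) from macrophages of the splenic marginal zone and of lymph nodes, where it captures blood-borne polysaccharides and binds C1q, and Cd209d (SIGNR3) from myeloid cells that meet mycobacteria and fungi. The functions of Cd209f and Cd209g are little known.

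The 7 genes lie in 1 cluster on chromosome 8 of GRCm38.p6, in the order Cd209a, Cd209e, Cd209d, Cd209b, Cd209c, Cd209f and Cd209g, over 394.3 kb (chr8:3743395-4137707). Cd209f (chr8:4102784-4105838, minus strand, probeset 10576835) and Cd209g (chr8:4134246-4137707, plus strand, probeset 10569896) lie at one end, 28.4 kb apart and 148.0 kb from Cd209c, and Cd209g is the only member on the plus strand. Their sequences before the start are shown because the expression of both genes moved together across the em-KC arrays, as described below. They are the 250 bases before a RefSeq transcript start, 5′ to 3′ on the strand of the gene (chr8:4105765-4106014 for Cd209f and chr8:4134486-4134735 for Cd209g), and capitals mark the longest run that both share.
Cd209f: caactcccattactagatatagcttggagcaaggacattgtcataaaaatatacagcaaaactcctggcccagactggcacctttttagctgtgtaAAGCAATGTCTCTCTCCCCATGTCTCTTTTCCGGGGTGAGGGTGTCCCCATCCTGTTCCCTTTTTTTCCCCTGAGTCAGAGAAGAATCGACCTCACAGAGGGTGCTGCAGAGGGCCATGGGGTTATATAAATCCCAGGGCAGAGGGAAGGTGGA
Cd209g: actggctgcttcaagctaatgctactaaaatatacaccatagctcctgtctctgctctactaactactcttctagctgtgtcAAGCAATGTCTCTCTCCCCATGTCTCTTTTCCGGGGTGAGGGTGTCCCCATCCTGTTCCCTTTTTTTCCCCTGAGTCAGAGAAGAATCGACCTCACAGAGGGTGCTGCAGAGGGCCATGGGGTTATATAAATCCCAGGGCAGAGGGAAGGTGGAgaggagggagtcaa
The shared run was 154 bases long without a mismatch, from -154 to -1 before the Cd209f start and from -168 to -15 before the Cd209g start. A local alignment of both windows covered 210 columns, of which 193 (91.9%) were identical. Among the other pairs of members, of 21 pairs in all, the longest shared run was 12 bases. The starts are those of 1 RefSeq transcript per gene. Counted from the annotated 5′ end of the gene, the start of Cd209f lay 74 bases inside the gene, that of Cd209g 490 bases and that of Cd209c 7883 bases. The printed Cd209g window thus lies within the annotated gene.

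Of 6 motifs searched on both strands of these windows, the AP-1 motif TGAGTCA was found before Cd209f (at -83) and Cd209g (at -97) and before none of the other 5 members, and 4.46% of all 32851 RefSeq windows of the same length held it. The TATA box TATAAA was found before Cd209f (at -29), Cd209g (at -43) and Cd209a (at -184), and in 12.4% of all windows. The ETS core CCGGAA was found before Cd209a, Cd209b, Cd209e, Cd209f and Cd209g, and in 12.0% of all windows. The RBPJ motif TGGGAA was found before Cd209d and Cd209e, and in 21.6% of all windows. The PU-box GAGGAAGT (2.44% of all windows) and the SMAD palindrome GTCTAGAC (0.167%) were found before no member. The matches of Cd209f and Cd209g for AP-1, TATA and ETS lie inside the shared run and are thus the same letters, and a match describes the sequence only.

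The arrays carry some differences that the conditions do not name. Day 30 mo-KC replicates 3 to 5 and the 3 em-KC arrays of WT mice had high Xist (at least 8.72 on the log2 scale) and low Y-linked genes, whereas the other 13 arrays had Xist of at most 4.53. Cd209f and Cd209g are given for each of the 2 sets as well. The mean log2 level of 10 KC markers ranged over 11.09 to 11.51 in mo-KCs and 11.85 to 12.05 in em-KCs. Over both days, meaning the mean of the day 15 and day 30 differences from em-KCs, Clec4f, Timd4, Marco and C6 among them fell, where 1.19% of all genes passed. The others, Vsig4, Cd5l, Adgre1, Clec1b, Folr2 and Csf1r, differed by -0.17 (Adgre1) to 0.07 (Clec1b) without passing. Clec4f differed by -0.32 at day 15, which did not pass the test, and by -1.26 at day 30, which did. Hepatocyte markers (13 genes) ranged over 7.98 to 9.45 in mo-KCs and 8.34 to 10.44 in em-KCs, and dendritic cell markers (13 genes) over 5.73 to 6.08 in mo-KCs and 5.74 to 6.14 in em-KCs. Of these lists, 1 hepatocyte gene (Trf) fell and no dendritic cell gene passed the test. Among 8 monocyte genes, Ccr2 and Cx3cr1 were higher in mo-KCs than in em-KCs over both days. Ccr2 differed by 2.90 at day 15 and by 0.61 at day 30, where it did not pass, and Cx3cr1 by 2.43 and 1.16. Without passing over both days, Plac8 (0.62) and Vcan (0.08) were higher, and S100a4 (-0.60), Fn1 (-0.44), F13a1 (-0.10) and Chil3 (-0.08) lower. The monocyte list had a median difference of -2e-04 over both days and ranged over 6.45 to 7.12 in mo-KCs and 6.14 to 6.88 in em-KCs. The mean level of 14 sinusoidal endothelial genes ranged over 9.137 to 9.985 in mo-KCs and 9.087 to 10.16 in em-KCs. Of these and of 8 neutrophil genes 0 passed, and 1 of 6 B cell genes (Cd22) and 1 of 8 T and NK cell genes (Cd4) fell. The sort had taken viable leukocytes (CD45+) with Clec4F and the macrophage antigen of Adgre1 on their surface and intermediate CD11b, without Ly6C, Ly6G or SiglecF, a gate that would remove hepatocytes, endothelium, neutrophils and lymphocytes as single cells. The part of RNA from other cells in the values of the Cd209 genes was not tested beyond the hepatocyte level. The B cell list ranged over 6.33 to 6.81 in mo-KCs and 6.58 to 7.29 in em-KCs, with a median difference of -0.48 over both days against -0.01 for all genes. Ly6g, Mmp8, Retnlg and Cxcr2 of the neutrophil list and Ncr1 and Klrb1c of the T and NK cell list lay at or below the dim level on every array, whereas S100a9 lay above it on all 19 and S100a8, Camp, Cd3e, Cd4 and Nkg7 on most. This dim level was set per array as the level at or below which 95% of 1194 olfactory and vomeronasal receptor genes lay, genes that macrophages are not known to use. It ran from 5.24 to 5.49 on the log2 scale, and since probes differ in affinity it is a yardstick and not a limit of detection.

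Most members gave no signal that could be told from the dim level. Cd209a, Cd209c, Cd209d and Cd209e lay at or below it on all 19 arrays, with ranges of 4.67 to 5.24, 4.43 to 5.40, 4.25 to 5.45 and 4.02 to 4.57 on the log2 scale. Cd209g lay at or below it on 15 of the 19 arrays, namely on 8 of 8 mo-KC and 7 of 11 em-KC arrays. Cd209b lay at or below it on 2 arrays, day 30 mo-KC replicates 3 and 4. Cd209f lay above it on 11 of 11 em-KC arrays and at or below it on 4 of 8 mo-KC arrays. Thus Cd209f was the member with a signal well clear of the dim level throughout em-KCs. Cd209b lay above it there by less, with 5.49 against a dim level of 5.31 on untreated KC-DTR replicate 3. The values of the other 5 describe probesets at the low end of the arrays.

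**Figure D1:**
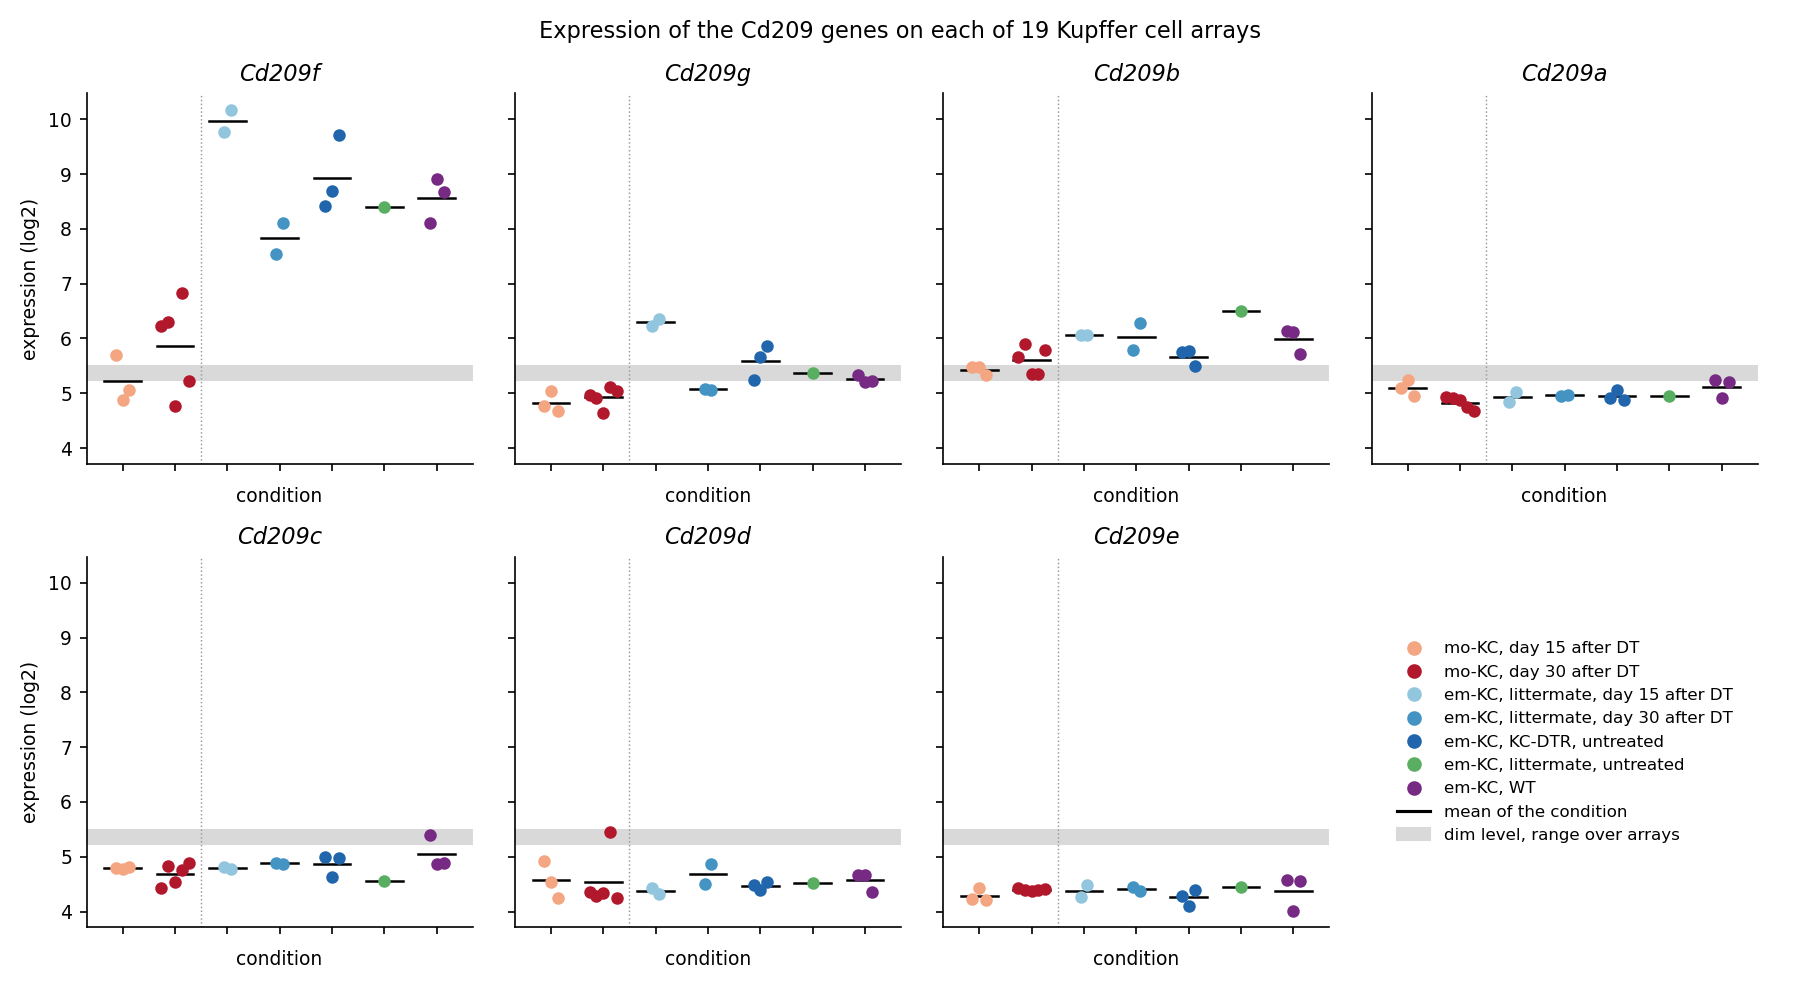
Expression (log2, vertical axis) of the 7 Cd209 genes on each array (points) in the 7 conditions, with lines at the mean of a condition, mo-KCs to the left of the dotted line and a grey band for the range of the dim level over arrays (5.24 to 5.49). Cd209f of every mo-KC array (4.77 to 6.83) lies below every em-KC array (7.54 to 10.16), and Cd209a, Cd209c, Cd209d and Cd209e lie at or below the dim level of their own array throughout.

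The first comparison asked whether KCs that arose from monocytes differ from KCs of embryonic origin in these lectins. Cd209f had 5.70, 4.88 and 5.07 on the log2 scale in day 15 mo-KCs and 6.23, 6.30, 4.77, 6.83 and 5.22 in day 30 mo-KCs, against a lowest value of 7.54, a median of 8.67 and a highest value of 10.16 in the 11 em-KC arrays. The 8 mo-KC arrays and the 11 em-KC arrays did not overlap, and 0.71 lay between the highest mo-KC and the lowest em-KC array. An order of this kind, with every mo-KC array below every em-KC array, held for 0.256% of the 19938 genes and for 1 of the 7 members. The spread of Cd209f was 0.43 around a mean of 5.22 at day 15 and 0.85 around 5.87 at day 30 in mo-KCs (SD, n = 3 and 5), and 0.81 around 8.77 in the 11 em-KC arrays. Over both days Cd209f fell by 3.23 (95% confidence interval -3.90 to -2.55, adjusted p = 2.39e-06) in 1 limma fit of the 3 groups, in which p-values were adjusted after Benjamini and Hochberg across the 19938 genes and called under 0.05. The interval of the difference was -4.48 to -2.62 for day 15 and -3.67 to -2.13 for day 30, and these overlap. Permuting the arrays in an exact two-sided test gave p = 0.0055 for day 15, p = 0.00046 for day 30 and p = 2.6e-05 for all mo-KCs, each the smallest that its 364, 4368 and 75582 groupings allow, in a family of 21 such tests. Since 4 of 8 mo-KC arrays lay at or below the dim level, those arrays were also raised to their own dim level. The mean of the day 15 and day 30 means of Cd209f then lay 8.09-fold below the em-KC mean. This is a lower estimate for these arrays that leaves out their spread. In sorted cells in bulk, fewer cells that express the gene and less RNA per cell cannot be told apart.

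Among the members, Cd209f was the 1 of 7 that passed at day 15, where 0.502% of all genes passed, the 1 of 7 at day 30, where 0.787% passed, and the 1 of 7 over both days, where 1.19% passed. At an unadjusted p under 0.05 the counts were 3 of 7 at day 15, 4 of 7 at day 30 and 3 of 7 over both days, against 6.05%, 13% and 10.6% of all genes. Between the days, 0 of 7 members passed by limma (0.0201% of all genes), and 1 of 7 had an unadjusted p under 0.05, which was Cd209a. The methods' t-test gave the same count of 1 before adjustment. In mo-KCs, Cd209f was 0.65 higher at day 30 than at day 15, with an interval of -0.39 to 1.70 (adjusted p = 0.922 from limma), so that a gain and a small loss with time are both inside the interval. The 5 day 30 arrays held both lower and higher values than the day 15 arrays. Day 30 replicates 3 and 5 (4.77 and 5.22) lay within or below the day 15 values, whereas replicates 1, 2 and 4 (6.23 to 6.83) lay above them.

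The fall of Cd209f held within both sets of arrays that sex-linked genes separate. Among the 13 arrays with high Y-linked genes Cd209f differed by -3.63 at day 15 (limma, adjusted p = 2.55e-04) and by -2.58 at day 30 (adjusted p = 0.0412), where mo-KC replicates 1 and 2 stood against 8 em-KC arrays. Cd209g differed by -0.78 and -0.66 in these arrays (adjusted p = 0.2 and 0.65 from limma). Among the 6 arrays with low Y-linked genes Cd209f differed by -2.95 at day 30 and Cd209g by -0.32 (adjusted p = 0.0161 and 0.257 from limma), with Cd209f at 4.77, 6.83 and 5.22 in mo-KCs against 8.11, 8.91 and 8.67 in WT em-KCs. With the mean of the hepatocyte markers as a covariate Cd209f differed by -3.62 for day 15 and by -2.94 for day 30. Within the em-KC arrays, Cd209f and that mean had a Pearson correlation of -0.042 (n = 11).

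Cd209g, the neighbour that shares the upstream run, followed in the same direction without passing the threshold. Cd209g had 4.76, 5.04 and 4.68 on the log2 scale in day 15 mo-KCs and 4.97, 4.92, 4.64, 5.11 and 5.04 in day 30 mo-KCs, against a lowest value of 5.06, a median of 5.33 and a highest value of 6.36 in em-KCs. Of the 8 mo-KC arrays, 7 lay below every em-KC array, and day 30 replicate 4 lay above the 2 day 30 littermate arrays. The difference was -0.69 at day 15 (adjusted p = 0.344 from limma), -0.57 at day 30 (adjusted p = 0.168) and -0.63 over both days (95% confidence interval -0.97 to -0.29, adjusted p = 0.0628). By exact permutation over arrays the two-sided p for Cd209g was 0.0055, 0.0018 and 0.00013, without adjustment. Whether the members' probes cross-hybridise was not tested, and Cd209f and Cd209g belong to a family of near copies.

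Cd209b, the SIGN-R1 gene, was lower in the measured values against all em-KCs, without passing the threshold, and by less against untreated KC-DTR mice alone (-0.24 at day 15 and -0.06 at day 30). It had 5.48, 5.48 and 5.33 on the log2 scale in day 15 mo-KCs and 5.65, 5.90, 5.34, 5.35 and 5.80 in day 30 mo-KCs, against a lowest value of 5.49, a median of 6.05 and a highest value of 6.51 in em-KCs. The 3 day 15 arrays lay below every em-KC array, the lowest of which (5.49) was 1 of the 3 untreated KC-DTR arrays, and 3 of the 5 day 30 arrays overlapped the em-KC range. The dim levels of the 3 day 15 arrays were 5.41, 5.45 and 5.24, so their Cd209b values stood just above them. The difference was -0.54 at day 15 (adjusted p = 0.253 from limma), -0.36 at day 30 (adjusted p = 0.245) and -0.45 over both days (95% confidence interval -0.70 to -0.21, adjusted p = 0.0735), with exact permutation p of 0.0055, 0.034 and 0.0033.

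No difference between mo-KCs and em-KCs passed the test for the remaining members. Over both days Cd209a differed by -0.03, Cd209c by -0.14, Cd209d by 0.03 and Cd209e by -0.01, with 95% confidence intervals inside -0.33 to 0.31, and their adjusted p ran from 0.636 to 0.975 (limma). Cd209a, the lectin of dendritic cells, was 0.27 lower at day 30 than at day 15 (adjusted p = 0.92). All these values lie at or below the dim level, where a change of the transcript need not appear as a change of the signal.

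**Figure D2:**
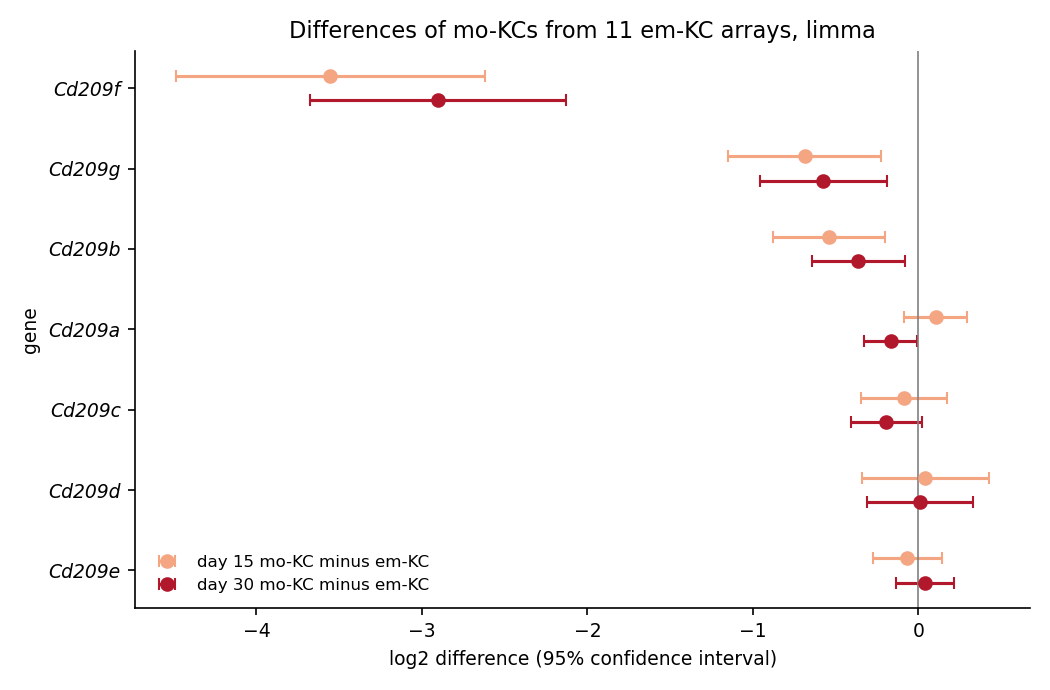
Log2 difference (horizontal axis, points) with its 95% confidence interval (bars) of day 15 and day 30 mo-KCs from the 11 em-KC arrays for the 7 Cd209 genes, from limma. Cd209f stands at -3.55 and -2.90, Cd209g and Cd209b lie between -0.69 and -0.36, and the intervals of Cd209c, Cd209d and Cd209e include 0 on both days.

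The em-KC arrays themselves differed more in Cd209f than in most genes. Its SD over the 11 em-KC arrays was 0.81 on the log2 scale, which ranked 118 of 19938 genes, against 0.19 for the median gene. The SD of Cd209g was 0.46 and ranked 717. The order of the conditions by mean Cd209f level was day 15 littermates (9.96), untreated KC-DTR mice (8.94), WT mice (8.56), the untreated littermate (8.40), day 30 littermates (7.83), day 30 mo-KCs (5.87) and day 15 mo-KCs (5.22). Of these neighbours, untreated KC-DTR mice (8.41 to 9.71) and WT mice (8.11 to 8.91) overlapped, and so did both mo-KC conditions. The untreated littermate (8.40) lay within the WT range and just below the lowest untreated KC-DTR array (8.41). The day 15 littermates (9.77 and 10.16) lay above and the day 30 littermates (7.54 and 8.11) below each of the other em-KC arrays, the margin to the lowest WT array (8.11) being under the rounding shown here.

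Set against the untreated mice of their own genotype, mo-KCs fell in both Cd209f and Cd209g in the measured values. In the fit of all 7 conditions the difference of Cd209f was -3.72 for day 15 (adjusted p = 1.28e-04 from limma) and -3.07 for day 30 (adjusted p = 5.09e-04), and mo-KC arrays of at most 6.83 stood against 8.41, 8.68 and 9.71 in untreated KC-DTR mice. Cd209g differed by -0.76 for day 15 (adjusted p = 0.025 from limma) and by -0.65 for day 30 (adjusted p = 0.0414), with mo-KC arrays of at most 5.11, all at or below the dim level, against 5.24, 5.66 and 5.87. Of these, the 5.24 of untreated KC-DTR replicate 1 lay below its own dim level (5.33) as well. With the mo-KC arrays raised to their own dim level, their Cd209g mean lay 1.17-fold (day 15) and 1.14-fold (day 30) below the untreated KC-DTR mean. These are lower estimates that leave out the spread. Cd209b differed by -0.24 for day 15 (95% confidence interval -0.59 to 0.11, adjusted p = 1) and by -0.06 for day 30 (-0.37 to 0.25, adjusted p = 0.927). Thus 2 of 7 members passed at each day, where 0.391% and 0.366% of all genes passed. The call of Cd209g is close to the threshold. It was lost in 4 of 18 fits without 1 array at day 15 (adjusted p of 0.00412 to 0.199) and in 14 of 18 at day 30 (0.00862 to 0.293), as well as when untreated KC-DTR and mo-KC arrays were fitted alone (adjusted p = 0.142 and 0.233).

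Set against littermates that had received the same toxin, Cd209f and Cd209g of mo-KCs fell at day 15, and at day 30 Cd209f was lower on every mo-KC array without passing the threshold against 2 littermate arrays. At day 15 Cd209f was 5.70, 4.88 and 5.07 in mo-KCs and 9.77 and 10.16 in littermate em-KCs, a difference of -4.75 in the measured values (95% confidence interval -5.77 to -3.73, adjusted p = 4.46e-05 from limma) that ranked 1 of 19938 genes by size. Since 2 of the 3 mo-KC arrays lay at or below the dim level, those arrays were also raised to their own dim level. The mo-KC mean of Cd209f then lay 22.7-fold below the mean of the 2 littermate arrays, a lower estimate that leaves out their spread. Cd209g was 4.76, 5.04 and 4.68 in mo-KCs and 6.22 and 6.36 in littermate em-KCs, a difference of -1.47 in the measured values (adjusted p = 1.41e-04 from limma). All 3 mo-KC arrays lay at or below the dim level for Cd209g, whose mo-KC mean on the same footing lay 1.90-fold below the littermate mean. These were 2 of 7 members that passed at day 15, where 0.221% of all genes passed, and both kept their calls in each of 18 fits without 1 array.

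At day 30 Cd209f was 6.23, 6.30, 4.77, 6.83 and 5.22 in mo-KCs and 7.54 and 8.11 in littermate em-KCs. The groups did not overlap, yet the difference of -1.96 (95% confidence interval -2.89 to -1.02) did not pass after adjustment (unadjusted p = 3.61e-04, adjusted p = 0.131 from limma). Cd209g differed by -0.14 (-0.46 to 0.19, adjusted p = 0.886). Thus 0 of 7 members passed at day 30 by limma, where 0.135% of all genes passed, and 2 of 7 had an unadjusted p under 0.05, Cd209f and Cd209b.

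The difference of mo-KCs from littermates was 2.79 closer to 0 at day 30 than at day 15 for Cd209f, of which 0.65 was the day 30 minus day 15 difference within mo-KCs and the rest that within littermates. In comparisons added after the data had been seen, littermate em-KCs at day 30 differed from those at day 15 by -2.14 in Cd209f (95% confidence interval -3.26 to -1.02, unadjusted p = 8.15e-04, adjusted p = 1 from limma), which ranked 1 of 19938 genes by size, and by -1.22 in Cd209g (-1.61 to -0.83, unadjusted p = 3.63e-06, adjusted p = 0.0723). No gene passed in this comparison of 2 against 2 arrays (0% of all genes), 1.87% of all genes had an unadjusted p under 0.05, and 2 of 7 members did. The change in the difference from littermates was 2.79 for Cd209f (95% confidence interval 1.41 to 4.17, unadjusted p = 5.08e-04, adjusted p = 1) and 1.33 for Cd209g (unadjusted p = 1.72e-05, adjusted p = 0.114). Here 0 of 7 members passed by limma, where 0.00502% of all genes passed, and 2 of 7 had an unadjusted p under 0.05. Both are differences between small groups in which sampling day, litter and any array batch cannot be told apart.

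Among em-KCs alone, genotype and source gave no call for a member. WT em-KCs differed from the other 8 em-KC arrays by -0.29 in Cd209f (adjusted p = 0.614 from limma) and by -0.35 in Cd209g (adjusted p = 0.057), and 0 of 7 members passed although 17.9% of all genes did. At an unadjusted p under 0.05 the count was 1 of 7, namely Cd209g. Untreated KC-DTR em-KCs differed from the 5 littermate arrays by 0.14 in Cd209f (adjusted p = 1) and by -0.47 in Cd209b (unadjusted p = 0.00521, adjusted p = 1), with 0 of 7 members and 0% of all genes past the threshold and 1 of 7 at an unadjusted p under 0.05. DT-treated littermates differed from the 1 untreated littermate by 0.50 in Cd209f (95% confidence interval -0.75 to 1.74), with 0 of 7 members and 0% of all genes past the threshold and 0 of 7 at an unadjusted p under 0.05 (limma), the lone array being assumed to vary like the other conditions. These comparisons share their arrays with those above.

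**Figure D3:**
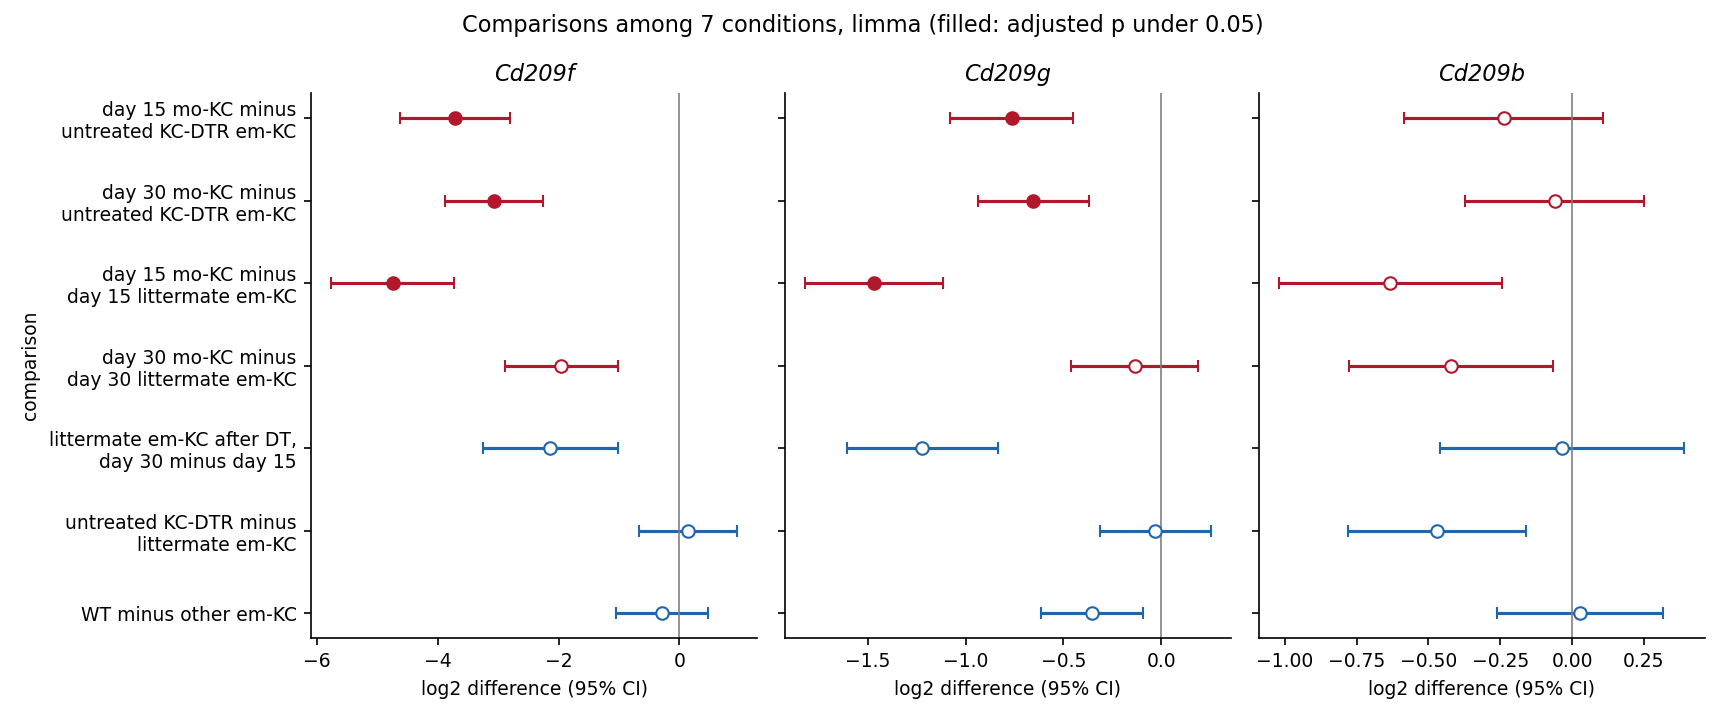
Log2 difference (horizontal axis, a scale of its own per panel) with its 95% confidence interval for Cd209f, Cd209g and Cd209b in comparisons of mo-KCs with em-KC conditions (red) and among em-KC conditions (blue), from the limma fit of 7 conditions, with filled points where the adjusted p was under 0.05. Cd209f differs by -4.75 from littermates at day 15 and by -1.96 at day 30, and littermates at day 30 differ from those at day 15 by -2.14.

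Cd209f and Cd209g moved together where Cd209f was expressed. Across the 11 em-KC arrays their Pearson correlation was 0.899 (Spearman 0.773), and Cd209g ranked first of all other genes in likeness to Cd209f. The next genes were Cpxm1, a carboxypeptidase-like secreted protein (0.880), Prl2c1, a prolactin family gene (0.823), Jund, an AP-1 subunit (0.811), and Ntn5, a netrin (0.810). The em-KC means of Cpxm1 (4.96), Prl2c1 (3.63) and Ntn5 (5.10) lay below the lowest dim level of any array (5.24), whereas that of Jund was 8.36. The likeness of those dim genes thus describes probesets near background. The other 5 members had correlations of -0.462 to -0.133 with Cd209f over these arrays. The highest Cd209g values stood on the day 15 littermate arrays (6.22 and 6.36) and untreated KC-DTR replicate 3 (5.87), which also held the highest Cd209f values (9.77, 10.16 and 9.71). Cd209g lay at or below the dim level on 7 of these 11 arrays, and without the 2 day 15 littermates the correlation was 0.765 (Spearman 0.583, n = 9). Over the 8 mo-KC arrays, all with Cd209g at or below the dim level, the correlation was 0.505. These are descriptions over few arrays that share their conditions and their normalization.

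**Figure D4:**
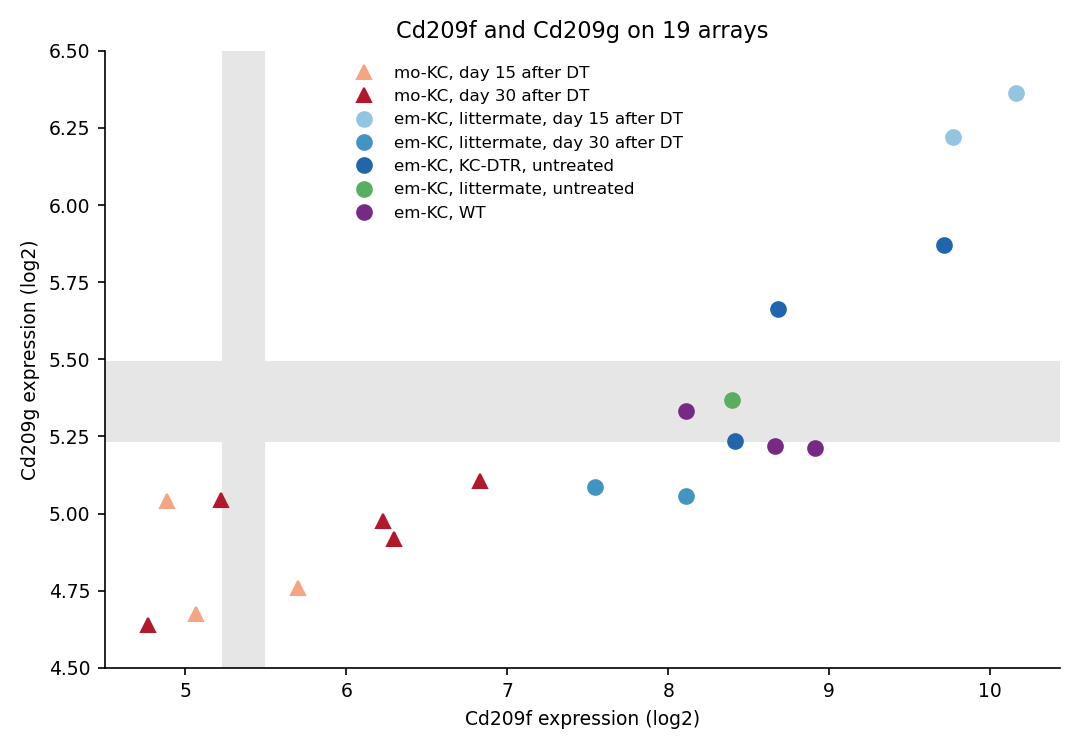
Cd209g (vertical axis, log2) against Cd209f (horizontal axis, log2) on the 19 arrays, with triangles for mo-KCs, circles for em-KCs, colours for the conditions and grey bands for the range of the dim level. Both genes are highest in day 15 littermates, and the correlation is 0.505 over the 8 mo-KC arrays, 0.899 over the 11 em-KC arrays and 0.765 over em-KC arrays without those littermates.

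Over all 19 arrays, which join the difference between mo-KCs and em-KCs with the spread inside each, the genes most like Cd209f were Cd163, a scavenger receptor for haemoglobin (Pearson correlation 0.924), Sdc2, a heparan sulfate proteoglycan (0.910), C2, a complement protease (0.910), Bmpr1a, a receptor for bone morphogenetic proteins (0.908), and Timd4, a receptor for phosphatidylserine (0.898). Cd209g ranked 16 (0.844) and Cd209b ranked 351 (0.575). Genes chosen by likeness to Cd209f over these arrays follow its gap between mo-KCs and em-KCs, so their own fall is no separate result. Their log2 differences over both days were -1.92 for Cd163, -2.43 for Sdc2, -3.05 for C2, -2.79 for Bmpr1a and -3.01 for Timd4. Over the em-KC arrays alone, Cd163 had a correlation of 0.626 with Cd209f and Timd4 one of 0.337.

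Among the 16 measured genes around the cluster, 0 fell and 1 rose over both days, where 1.19% of all genes passed in either direction. A count of 0 that fell is near the share of all genes, of which 148 of 19938 fell. The starts of these 16 neighbours lay at -492.7 to 390.0 kb from that of Cd209f on chromosome 8, a wider stretch than the cluster. The median difference of the list was 0.04, against -0.01 for all genes. The gene that rose was Mcemp1, a mast cell-expressed membrane protein, which lies at -437.0 kb and was 0.73 higher (adjusted p = 1.77e-04 from limma), with 6.08 to 6.71 in mo-KCs and 5.38 to 6.12 in em-KCs. Clec4g, the lectin of liver sinusoidal endothelium that lies beside Cd209a, had 11.57 to 11.98 in mo-KCs and 10.90 to 12.25 in em-KCs and differed by 0.08 (adjusted p = 0.876). Fcer2a, the low-affinity IgE receptor of B cells, differed by -0.48 (adjusted p = 0.293). Evi5l, the nearest measured gene past Cd209g, differed by -0.10 (adjusted p = 0.724).

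**Figure D5:**
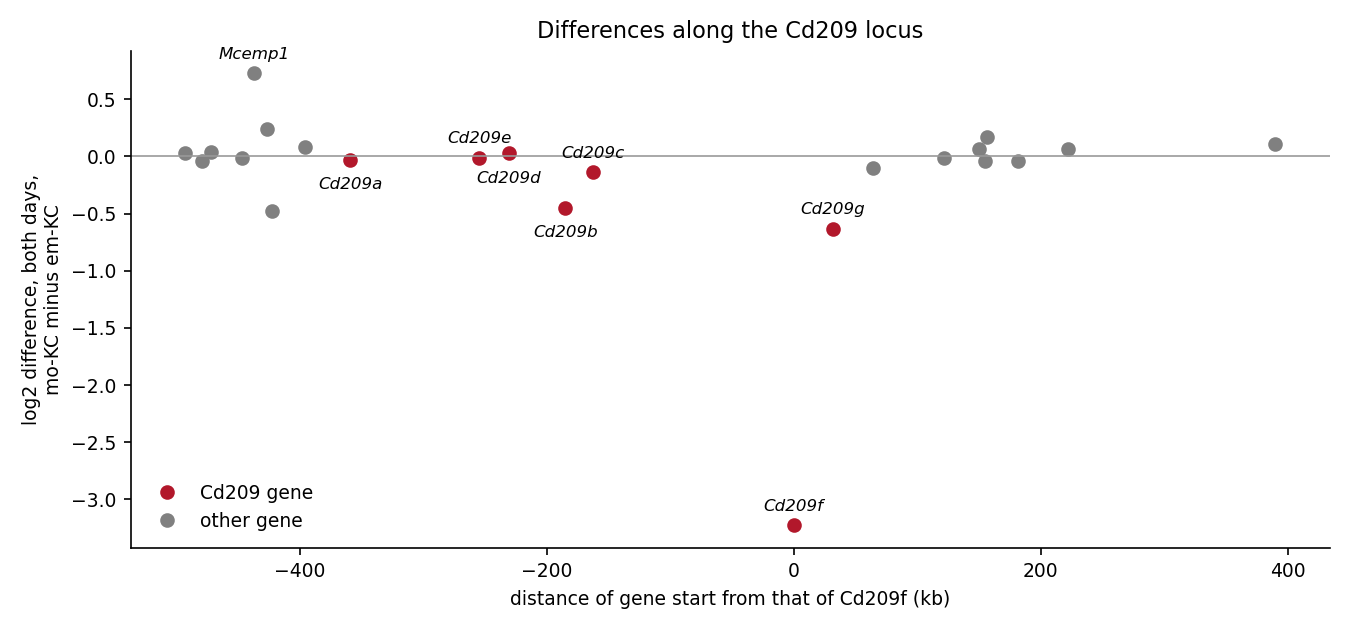
Log2 difference of mo-KCs from em-KCs over both days (vertical axis, limma) for the Cd209 genes (red) and 16 neighbours (grey) by the distance of the gene start from that of Cd209f (horizontal axis, kb). Cd209f stands at -3.23 between Cd209c (-0.14) and Cd209g (-0.63), and Mcemp1 is the neighbour that passed the threshold, at 0.73.

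Of the genes known to work with these lectins, 1 passed the test. The 15 measured signalling partners of DC-SIGN and the SIGNR proteins included Syk, Fcer1g, Card9, Bcl10, Malt1, Rela and Il10. Of these 15, 0 passed by limma at day 15, at day 30 or over both days. As 0.502%, 0.787% and 1.19% of all genes passed, 0 of 15 is near the share of all genes. Differences over both days ran from -0.18 for Src to 0.33 for Ikbke. Of 4 measured complement genes that act with SIGN-R1, C1qa, C1qb and C1qc stood within 0.10 of em-KCs (adjusted p of 0.558 to 0.882), and C4b, a complement component that C1 cleaves, fell by 1.30 (adjusted p = 1.03e-06), with 9.05 to 9.74 in mo-KCs and 10.12 to 11.19 in em-KCs. C1qa, a chain of C1q, had 12.69 to 12.94 in mo-KCs and 12.78 to 12.95 in em-KCs, and these ranges overlapped.

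Genes that Cd209b-bearing macrophages of other organs are known for fell in part. Of 9 marginal zone and medullary macrophage genes, 3 fell at day 15, 4 at day 30 and 3 over both days, where 0.502%, 0.787% and 1.19% of all genes passed in either direction (median difference over both days -0.23, against -0.01 for all genes). The ones that fell over both days were Cxcl13, a chemokine for B cells (-2.76), Timd4 (-3.01) and Marco, a scavenger receptor of blood-cleansing macrophages (-1.26), and Spic, a transcription factor of iron-handling macrophages, fell by 0.54 at day 30 (adjusted p = 0.013). Siglec1, the sialic acid lectin that marks metallophilic macrophages, differed by -0.18 (adjusted p = 0.573). Of 15 long-lived resident macrophage genes, 3 fell over both days (Timd4, Cd163 and C4b) and none rose, against the same 1.19% of all genes, whereas Mrc1, the mannose receptor, differed by -0.24 (adjusted p = 0.275) and Vsig4 by -0.13 (adjusted p = 0.322). Within the em-KC arrays, the mean level of the marginal zone list had a correlation of -0.297 with Cd209f, and Marco one of -0.58.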

How the data were processed

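RNA of KCs sorted by flow cytometry had been hybridised to Affymetrix Mouse Gene 1.0 ST arrays. The authors deposited log2 signals per probeset, background-corrected, normalized between arrays and summarised by RMA, for all 19 arrays in 1 table, by software whose version is not stated in the sources used here. RMA draws the values of arrays towards a common distribution, compresses differences near background and adds no probe-level filter. The number of arrays limits the precision. No deposited column of sample values was left unused.

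Of 35556 probesets, 21789 had 1 gene symbol, 1621 several and 12146 none in the platform annotation, and each of 19938 genes was represented by its probeset of highest mean. limma 3.58.1 in R 4.3.3 was fitted to all genes, once with 3 groups (day 15 mo-KCs, day 30 mo-KCs, all em-KCs) and once with the 7 conditions, and p-values were adjusted by the Benjamini-Hochberg method across genes and called under 0.05. "Both days" is the mean of the day 15 and day 30 differences. Exact two-sided permutation tests over arrays used Python 3.11.15 with scipy 1.17.1. The fits were tested on simulated data. No pair of arrays held identical values.

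The Cd209 genes and the gene lists were chosen with earlier results of these data known. Named were the 7 members, the 5 genes most like each member called over both days and the called members of the lists, and list members named with values that did not pass were chosen after their values were seen. Sequences are from RefSeq (GRCm38.p6), where 7 of 7 members matched by symbol, and were aligned with Biopython 1.88. Alternatives covered the probeset choice, filters on dim genes, centring, the variance model, the methods' t-test, replicate and array-set blocks, subsets of em-KCs, a hepatocyte covariate, a stricter threshold and leaving out each array. The comparisons of littermates between days and of the difference between days, leaving out arrays in the fit of 7 conditions, the lower estimates of folds and the correlation without day 15 littermates were added after seeing the data.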

Additional observations from a re-analysis of the deposited data

Results flagged for a closer look

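Of the 7 members, Cd209d had 1 array that stood apart from the others of its condition. Day 30 mo-KC replicate 4 had 5.45 on the log2 scale, against 4.25 to 4.36 in the other 4 day 30 mo-KC arrays, and the gap to the nearest of them was 0.909 of the whole range. That array lay at or below its own dim level of 5.49, and without it Cd209d differed by -0.22 from em-KCs at day 30, against 0.01 with it, neither of which passed. It was the 1 of 7 groups looked at whose gap passed Dixon's 95% critical value, which chance passes in about 1 of 20 groups.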

How the results depend on the processing

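Cd209f kept its direction and its call against all em-KCs at day 15, day 30 and over both days under each alternative that gave a value, with differences without 1 array of -3.79 to -3.38, -3.14 to -2.63 and -3.35 to -3.09. No called difference changed sign under any alternative, and neither did an uncalled one of Cd209f or Cd209g. Differences of the other 5 members did in 2 to 7 of 13 comparisons each, all uncalled, as for Cd209d at day 30 (-0.22 to 0.08 without 1 array). The replicate numbers are shared without marking a pair: of 36 pairs with the same number, 5 had a correlation of deviations over 0.1 (-0.124 to 0.152), and with the replicate block Cd209f was -3.55, -3.0 and -3.27. Cd209g over both days passed, with a count of 3 members, under array weights (-0.72, 1.74% of all genes) and with a block for the array set (-0.62, 2.33%), where Cd209b passed too, and with a count of 2 members against em-KCs of the KC-DTR colony (-0.73, 1.35%) or untreated em-KCs (-0.53, 0.727%). By the methods' t-test without adjustment the counts were 3, 4 and 3 of 7 (Cd209g -0.69, -0.57 and -0.62), against 6.27%, 11.9% and 11.6% of all genes, and 1 between the days, against 3.92%. Fitted alone with untreated KC-DTR em-KCs, 1 member passed at each day (Cd209g -0.76 and -0.65), against 0.416% and 0.171% of all genes. With trended and robust variances, 1 member passed between littermate days (Cd209g -1.22), against 0.00502%. Without 1 array, Cd209g ranged over -0.68 to -0.55 over both days, passing without either day 30 littermate array (adjusted p = 0.0469 and 0.0448 from limma), and Cd209b passed without untreated KC-DTR replicate 3 or day 30 mo-KC replicate 2, so that 1 to 2 members passed. Without 1 array, Cd209g against untreated KC-DTR em-KCs was -0.94 to -0.62 at day 15 and -0.83 to -0.51 at day 30 (1 to 2 members), its change in the difference from littermates was 1.26 to 1.44 and its littermate difference between days -1.29 to -1.15 (0 to 1 member each). The causes were not tested. Each member has 1 probeset, so no other probeset could be tried. Signals of Cd209a, Cd209c, Cd209d, Cd209e and most of Cd209g lie near background, where differences are compressed.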
